A study of Mus musculus with 24 samples.

Results

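The comparison described here is that of liver RNA after 9 months without exposure against liver RNA at the end of exposure, in mice on Western diet that had inhaled vinyl chloride (VC). It uses 6 of the 24 libraries of the study, the 3 labelled m12_WD+VC and the 3 labelled w12_WD+VC, chosen by those labels alone. All were male C57Bl/6J mice on a Western-style diet with 42% fat, exposed to VC at about 0.85 ± 0.1 ppm over 12 weeks, for 6 hours a day and 5 days a week, and fasted for 4 hours before death. The m12_WD+VC mice were then kept for 9 more months, and their feeding time is labelled as 12 months; the w12_WD+VC mice were killed when exposure ended. Interactions with time also draw on m12_WD and w12_WD (42% fat, clean air) and on m12_CD+VC and w12_CD+VC (control diet with 13% fat, VC). Age at the start is not labelled, so age, time on diet and time since exposure cannot be told apart here. Whether every library is a separate mouse is not labelled, and the spread behind each p-value may therefore be technical.

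VC, the gas from which polyvinyl chloride is made, is oxidised in liver chiefly by cytochrome P450 2E1, and its reactive products are conjugated with glutathione. A long Western diet loads the liver with fat. In fatty liver, macrophages are known to take up lipid and to express lysosomal enzymes, osteopontin and galectins, and antigen-presenting cells show class II molecules of the major histocompatibility complex, which need the invariant chain CD74.

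The libraries held 141457 to 640952 counts in m12_WD+VC and 152082 to 566870 counts in w12_WD+VC. At such depths the limit that a count of 0 allows, 3 counts, is 4.49 to 22.3 CPM in m12_WD+VC and 6.69 to 20.4 CPM in w12_WD+VC (CPM, counts per 1000000 of the scaled library; the limit covers counting error only). Hepatocyte markers were abundant, with a summed 8070 to 10600 CPM in m12_WD+VC and 9970 to 12400 CPM in w12_WD+VC, so the labelled tissue matched its markers, apart from Ass1, which had 0 counts in all 6. Entries with exons lying across from another gene took 77.7% ± 2.25 of counts in m12_WD+VC and 81.0% ± 2.44 in w12_WD+VC (SD, n = 3 each), and Gm30505 alone had 225077 counts in the 6 libraries against 2396 for Ahsg, the fetuin-A gene on the other strand. Likewise Tomm40l had 68803 counts against 150 for Nr1i3, Nop9 44141 against 226 for Cideb, and Snx22 29291 against 146 for Ppib. The gap was smaller for Tcp1, with 14723 against 6111 for Acat3. The kit named does not mark strand, and no source used here gives the strand setting of HTSeq. How counts came to lie so unevenly on the strands was not tested. Reads of overlapping genes therefore cannot be assigned with certainty, and gene names stand for entries of the deposited table. Whether counts of genes without an overlap also come from the other strand was not tested.

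Sequences of the microRNA locus are shown because an entry from it was among those that rose, and its products lie on opposite strands of the same stretch. Counts of that entry cannot tell mature miRNA from longer RNA of the locus, so a change of mature miR-142b was not tested. The mature miRNAs are from RefSeq (GRCm38.p6, 1-based): mmu-miR-142b at chr11:87756906-87756925 on the minus strand, mmu-miR-142a-3p at chr11:87756903-87756925 and mmu-miR-142a-5p at chr11:87756867-87756887 on the plus strand. Capitals mark the seed, bases 2 to 8.
mmu-miR-142b: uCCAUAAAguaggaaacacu
mmu-miR-142a-3p: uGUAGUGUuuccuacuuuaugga
mmu-miR-142a-5p: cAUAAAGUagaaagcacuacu
The 3 seeds differ. All 20 bases of miR-142b lie within the reverse complement of the 23 bases of miR-142a-3p.

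Promoter windows, 250 bases before to 50 after a RefSeq start (GRCm38.p6), are shown for Tom1l2, which fell, and for Spp1 and Lgals3, which rose. They run over chr11:60352856-60353155 on the minus strand for Tom1l2, chr5:104434861-104435160 on the plus strand for Spp1 and chr14:47373610-47373909 on the plus strand for Lgals3. Capitals mark any match, on either strand, to 4 motifs chosen with the results known: the AP-1 motif TGANTCA, the E-box CACGTG, the PU.1 motif GAGGAAGT and the antioxidant response element TGACNNNGC.
Tom1l2 promoter: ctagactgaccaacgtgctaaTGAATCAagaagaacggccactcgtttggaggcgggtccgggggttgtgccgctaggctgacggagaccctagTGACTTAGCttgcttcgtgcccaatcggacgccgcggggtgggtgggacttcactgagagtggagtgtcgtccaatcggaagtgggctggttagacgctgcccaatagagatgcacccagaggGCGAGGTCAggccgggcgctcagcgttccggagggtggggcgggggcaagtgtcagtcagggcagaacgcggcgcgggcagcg
Spp1 promoter: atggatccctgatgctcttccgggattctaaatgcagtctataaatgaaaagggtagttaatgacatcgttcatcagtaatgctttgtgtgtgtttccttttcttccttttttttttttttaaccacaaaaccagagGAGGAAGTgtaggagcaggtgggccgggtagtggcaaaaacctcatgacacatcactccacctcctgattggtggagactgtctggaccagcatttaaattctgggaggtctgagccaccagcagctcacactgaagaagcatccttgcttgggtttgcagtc
Lgals3 promoter: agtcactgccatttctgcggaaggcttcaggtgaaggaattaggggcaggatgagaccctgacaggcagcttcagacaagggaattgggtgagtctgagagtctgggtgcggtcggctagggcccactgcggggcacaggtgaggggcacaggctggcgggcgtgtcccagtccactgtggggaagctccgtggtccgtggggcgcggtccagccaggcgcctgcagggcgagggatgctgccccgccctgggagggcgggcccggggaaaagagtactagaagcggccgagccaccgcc
Tom1l2 held 1 AP-1 match and 2 antioxidant response element matches that do not overlap, Spp1 held 1 PU.1 match, and these letters are not in the Lgals3 window. Over the 34 windows found for 24 of the 33 entries that passed the test below, the AP-1 motif stood in 2.94%, against 7.81% of all 32851 windows. The E-box stood in 8.82% against 7.15%, the PU.1 motif in 5.88% against 3.2%, and the antioxidant response element in 8.82% against 12.4%. These matches describe letters only.

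In livers of the m12_WD+VC mice the entries for osteopontin Spp1, galectin-3 Lgals3, the invariant chain Cd74 and the actin regulators Gsn and Tmsb10 were higher. Those for the endosomal adaptor Tom1l2 and the haem oxygenase Hmox2 were lower. Of 4198 genes tested, 33 (0.786%) passed edgeR's quasi-likelihood test at a Benjamini-Hochberg adjusted p of 0.05, 22 higher (0.524%) and 11 lower (0.262%) in m12_WD+VC. In 32 of the 33 the 2 groups did not overlap, as in 21.2% of all genes tested. Of the 33, 8 are predicted, clone or antisense entries, a kind that makes up 9.27% of entries tested. Another gene's exons lie across from 21, as they do for 50.6% of entries tested. Tom1l2 and Hmox2 are among these 21, so their reads cannot be assigned with certainty. AV064505, Spp1, Cd74, Arhgap27, Rasl12 and Lgi4 were low in w12_WD+VC and reached the test through libraries where they are higher. The antisense entry AV064505 and Tom1l2 were the 2 that passed whichever of the 6 libraries was left out. Without the second m12_WD+VC library only those 2 passed, and without the second w12_WD+VC library 5 did.

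**Figure D1:**
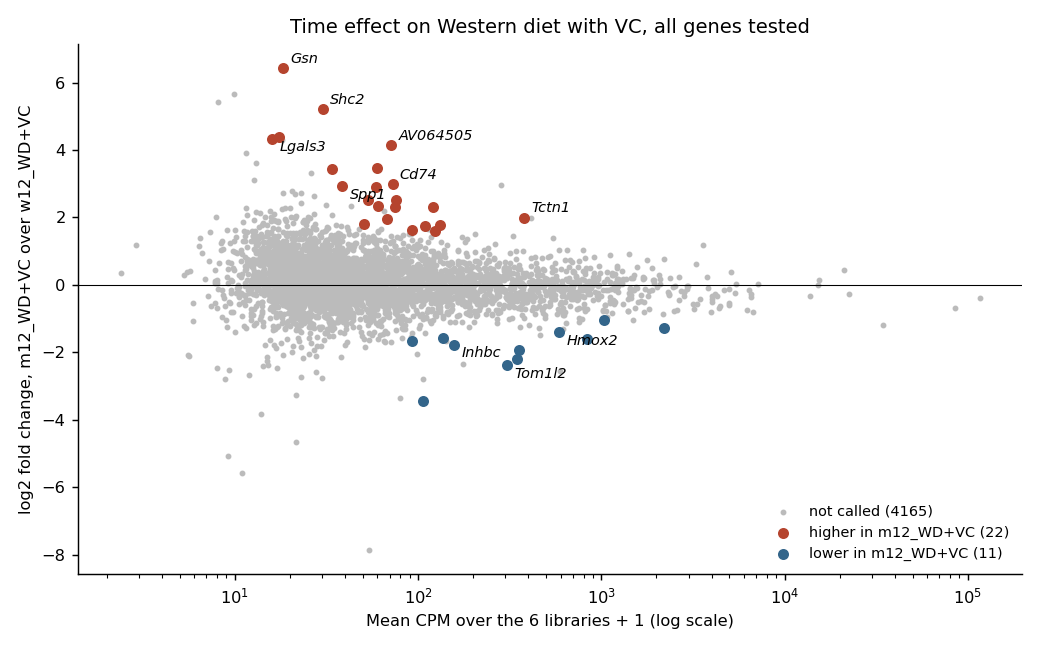
Log2 fold change (m12_WD+VC over w12_WD+VC) against mean CPM over the 6 libraries plus 1, on a log axis, for the 4198 genes tested. Red points are the 22 entries that passed the test as higher in m12_WD+VC and blue points the 11 that passed as lower. AV064505 lies at 4.16 and Tom1l2 at -2.37.

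Among genes known from lipid-laden macrophages, Spp1 and Lgals3 rose. Spp1, at chr5:104435118-104441050, encodes osteopontin, a secreted phosphoprotein of macrophages and bile duct cells. It had 44.6, 61.4 and 90.3 CPM in m12_WD+VC, against 8.92, 0 and 20.4 CPM in w12_WD+VC. All 3 m12_WD+VC libraries lay above all 3 w12_WD+VC libraries, and Spp1 was 7.58-fold higher (log2 2.92 ± 0.64, SE; edgeR adjusted p = 0.0184), though DESeq2 gave an adjusted p of 0.0671. Leaving out any 1 of 4 libraries, the first or the second of w12_WD+VC or the second or the third of m12_WD+VC, ended the call (edgeR adjusted p up to 0.157). Lgals3, at chr14:47367751-47386160, encodes galectin-3, a lectin that binds galactosides and is abundant in macrophages. It had 22.3, 43.4 and 21.9 CPM in m12_WD+VC, against 2.23, 0 and 0 CPM in w12_WD+VC. These are 40 counts against 1, a ratio of 28.5 (95% interval of counting 4.84 to 1160; edgeR adjusted p = 0.038). The call on Lgals3 ended whichever of the 6 libraries was left out, with edgeR adjusted p of 0.0553 to 0.383, and also with 23 libraries (0.0632).

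Other members of the lipid-laden macrophage list leaned the same way without passing the test. Gpnmb, a transmembrane glycoprotein of such macrophages, had 7.43, 24 and 10.9 CPM in m12_WD+VC and 0 CPM in each of the 3 w12_WD+VC libraries. It was at least 4.99-fold higher, set against 3 counts over the group (edgeR adjusted p = 0.0925). Ctsd, the lysosomal protease cathepsin D, had 126, 129 and 104 CPM in m12_WD+VC and 40.1, 37.7 and 54.5 CPM in w12_WD+VC, groups that did not overlap (log2 1.47 ± 0.46; edgeR adjusted p = 0.131). Of the 14 listed genes, 8 were tested and 2 passed, Spp1 and Lgals3, while all 8 except Plin2 had a log2 fold change above 0. The median was 2.37, or 2.16 with Gpnmb at its bound, beside 0.05 over all genes tested, of which 54.1% lay above 0. Lgals3 and Gpnmb, with 1 and 0 counts in w12_WD+VC, and Spp1, low there, reached the test through libraries where they are higher. The median therefore describes the members that passed the filter and supports nothing on the list. With the compared groups alone 3 members were tested with a median of 1.49, and without the first w12_WD+VC library the median of the 8 was 3.83. The summed level of the 14 was 438, 510 and 405 CPM in m12_WD+VC and 201, 189 and 211 CPM in w12_WD+VC.

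Markers of Kupffer cells and other macrophages summed to 512, 678 and 596 CPM in m12_WD+VC and 399, 256 and 334 CPM in w12_WD+VC, and their part in the results on Spp1, Lgals3 and Cd74 was not tested. In bulk tissue, more or fewer cells of a type and more or less RNA per cell cannot be told apart. None of the 13 tested of 18 listed passed edgeR's test, although 5 had an unadjusted p under 0.05 (11.8% of all genes tested). With limma-voom 2 passed, beside 239 of 4198 over all genes, and with DESeq2 0, beside 25 of 15541. The 15541 are all entries with a count in the 24 libraries. DESeq2 gave some of them no adjusted p, so the share among those that could pass is higher, here and below. C1qc, a chain of complement C1q that resident macrophages make, had 156, 139 and 104 CPM in m12_WD+VC and 31.2, 46.1 and 68.2 CPM in w12_WD+VC (log2 1.52 ± 0.43; edgeR adjusted p = 0.0925). C1qa differed in the same sense, at 22.3, 76.3 and 71.1 CPM in m12_WD+VC and 17.8, 21 and 13.6 CPM in w12_WD+VC (edgeR adjusted p = 0.152). Monocyte and neutrophil markers were near 0, with a summed 13.7 to 35.9 CPM in m12_WD+VC and 0 to 13.6 CPM in w12_WD+VC over 13 genes, of which Ly6c2, Retnlg and S100a8 had 0 counts in all 6.

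Among genes of antigen presentation, Cd74 rose. It encodes the invariant chain that guides class II molecules. Cd74 had 141, 172 and 73.8 CPM in m12_WD+VC, against 24.5, 4.19 and 13.6 CPM in w12_WD+VC. The groups stood well apart, and Cd74 was 8.02-fold higher (log2 3.0 ± 0.55; edgeR adjusted p = 0.00518); the call ended without the second m12_WD+VC or the second w12_WD+VC library, at up to 0.0883. The class II chain H2-Ab1 had 52.0, 147 and 84.8 CPM in m12_WD+VC and 40.1, 37.7 and 6.82 CPM in w12_WD+VC (log2 1.66 ± 0.47; edgeR adjusted p = 0.0925). H2-Eb1 and H2-Aa also had groups that did not overlap, at log2 1.73 ± 0.61 and 2.29 ± 0.93, and edgeR adjusted p of 0.186 and 0.295. Of the 13 listed genes 6 were tested, 5 lay above 0 (4 with scaling within overlap classes), the median was 1.7, and Cd74 alone passed. Over T, NK and B cell markers the sum was 16.4 to 67.4 CPM in m12_WD+VC and 20.1 to 46.1 CPM in w12_WD+VC, and 9 of them, Cd3d and Cd8a included, had 0 counts in all 6 libraries.

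**Figure D2:**
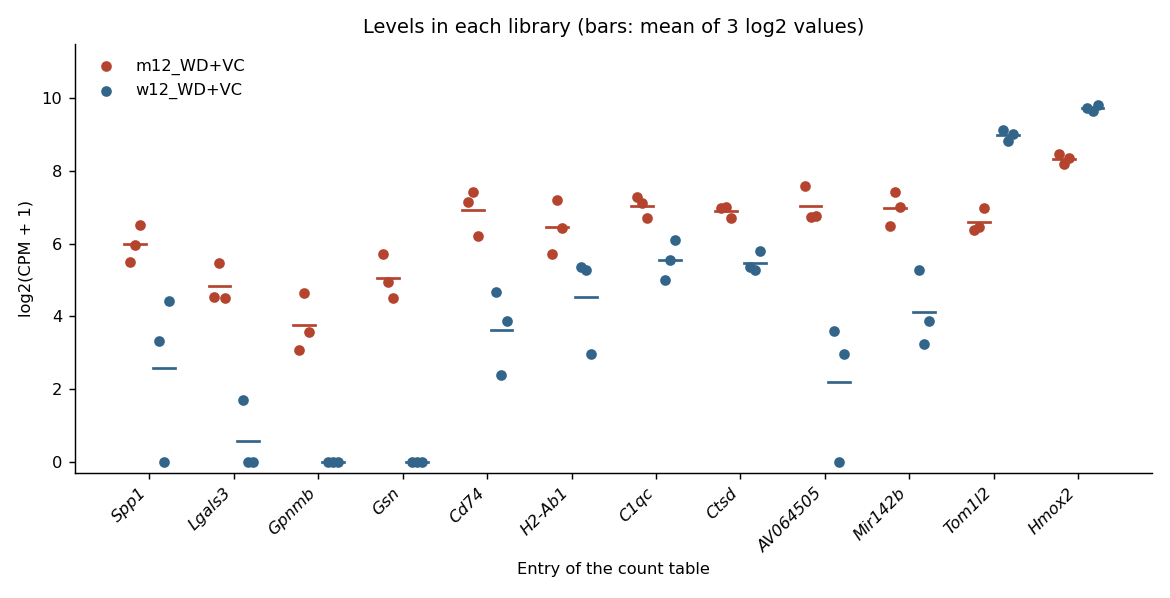
Levels as log2(CPM + 1) of 12 entries in each of the 3 m12_WD+VC (red) and 3 w12_WD+VC (blue) libraries; bars are means of the log2 values. The first 10 entries lie higher in m12_WD+VC and Tom1l2 and Hmox2 lie lower, with no overlap of the groups in any; Gpnmb, H2-Ab1, C1qc and Ctsd did not pass the test.

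A microRNA entry and regulators of the actin skeleton were also among those that rose. The Mir142b entry, at chr11:87756841-87756955 on the minus strand, had 89.1, 171 and 129 CPM in m12_WD+VC, against 37.9, 8.39 and 13.6 CPM in w12_WD+VC. It was 5.76-fold higher (log2 2.53 ± 0.59; edgeR adjusted p = 0.0286; DESeq2 0.0671), with all m12_WD+VC libraries above all w12_WD+VC libraries. The entry passed in 2 of the 6 fits that left a library out (edgeR adjusted p up to 0.286). Mir142, on the other strand of the stretch printed above, had 0 counts in the 6 libraries against 194 for Mir142b. The miRNA miR-142 is known from blood cell lineages, and its mature forms were not measured here. Gsn, gelsolin, which severs actin filaments, had 52.0, 29.9 and 21.9 CPM in m12_WD+VC and 0 CPM in all w12_WD+VC libraries, at least 8.32-fold higher against 3 counts over the group (edgeR adjusted p = 0.00868). Thymosin beta-10 Tmsb10, which binds actin monomers, had 81.7, 142 and 84.8 CPM in m12_WD+VC and 33.5, 16.8 and 0 CPM in w12_WD+VC (log2 2.34 ± 0.58; edgeR adjusted p = 0.0399). Both had separate groups. The call on Gsn ended without the first or the second w12_WD+VC library or the second m12_WD+VC library (edgeR adjusted p up to 0.0733). With 0 counts in w12_WD+VC, Gsn reached the test through libraries where it is higher. Tmsb10 missed the threshold in 4 alternatives, DESeq2 and scaling within overlap classes among them (adjusted p up to 0.108). It passed in 1 of the 6 fits that left a library out (edgeR adjusted p up to 0.413). Arhgap27 had 89.1, 144 and 93.0 CPM in m12_WD+VC and 8.92, 12.6 and 6.82 CPM in w12_WD+VC, 11.1-fold higher (edgeR adjusted p = 0.00518). Its exons overlap those of Arhgap27os1 and Arhgap27os2 on the other strand, which are not entries of the deposited table.

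Adaptors and signalling genes were also among the entries that rose. Shc2, an adaptor of receptor tyrosine kinases, had 66.8, 53.9 and 52.0 CPM in m12_WD+VC and 2.23, 0 and 0 CPM in w12_WD+VC, 64 counts against 1 (ratio 45.7, counting interval 7.91 to 1830; edgeR adjusted p = 0.0111). Dtx1, a ubiquitin ligase of the Notch pathway, had 37.1, 37.4 and 21.9 CPM in m12_WD+VC and 2.23, 0 and 0 CPM in w12_WD+VC (ratio 27.1, counting interval 4.58 to 1100; edgeR adjusted p = 0.0226). Neither pair of groups overlapped. Near 0 in w12_WD+VC, Shc2 and Dtx1 reached the test through libraries where they are higher. DESeq2 gave no adjusted p for Gsn, Shc2, Dtx1 and Lgals3. Gsn, Dtx1 and Lgals3 were also not tested with the compared groups alone. Of the 6 fits that left a library out, Dtx1 passed in 1 and Shc2 in 3 (edgeR adjusted p up to 0.187 and 0.0818). Exons of Shc2 overlap those of Gm47163 on the other strand, which is not an entry of the deposited table. Others that rose were Zfp872, Tsr2, Tctn1, Ctdsp1 and Nrxn2, at 3.47-fold to 5.77-fold. Exons of Zfp872, Tsr2, Tctn1 and Nrxn2 overlap those of 1810064F22Rik, Fgd1, Hvcn1 and Slc22a12 on the other strand, in that order. Their reads cannot be assigned with certainty. Fgd1 had 397 counts in the 6 libraries against 154 for Tsr2, and Hvcn1 had 644 against 1047 for Tctn1. With each library left out in turn, Tsr2 and Ctdsp1 passed in 0 of 6 fits, Zfp872 and Nrxn2 in 1 and Tctn1 in 3. Ctdsp1 missed the threshold in 5 alternatives, DESeq2 and scaling within overlap classes among them (adjusted p up to 0.143), Zfp872 with DESeq2 (0.0655) and Nrxn2 with 23 libraries (edgeR adjusted p 0.0632).

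Several entries that rose lie across another gene on the opposite strand. AV064505, an antisense entry at chr9:7669429-7695631 on the minus strand, overlaps exons of Mmp7, the matrix metalloproteinase matrilysin. It had 193, 105 and 107 CPM in m12_WD+VC, against 11.2, 0 and 6.82 CPM in w12_WD+VC, 17.8-fold higher (log2 4.16 ± 0.59; edgeR adjusted p = 0.000138). Mmp7 itself had 2 counts in the 6 libraries against 141 for AV064505. The Ras-like gene Rasl12, which overlaps the bile acid transporter subunit gene Slc51b, had 37.1, 106 and 41.0 CPM in m12_WD+VC and 8.92, 4.19 and 0 CPM in w12_WD+VC (log2 3.44 ± 0.73; edgeR adjusted p = 0.0141). Lgi4, a secreted protein known from peripheral nerve, overlaps Fxyd3, a regulator of the sodium pump, and had 134, 105 and 65.6 CPM in m12_WD+VC and 6.69, 16.8 and 20.4 CPM in w12_WD+VC (log2 2.91 ± 0.62; edgeR adjusted p = 0.0141). Neither Rasl12 nor Lgi4 had overlapping groups, and their partners had 2 and 17 counts. Low in w12_WD+VC, AV064505, Rasl12 and Lgi4 reached the test through libraries where they are higher. Plet1os, 4931428F04Rik and Gm16897 rose as well, Gm16897 not with 23 libraries (edgeR adjusted p 0.0576); Plet1, across from Plet1os, had a log2 fold change of 0.06 ± 0.42.

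Among the entries that fell, Tom1l2 had the smallest p. Exons of Tom1l2, Inhbc and Fam120b overlap those of Gm12265, Gm47200 and Gm49668 on the other strand, in that order. The deposited table has no entry for these partners, so the reads cannot be assigned with certainty. Tom1l2, at chr11:60226714-60352905, encodes an adaptor of endosomal sorting. It had 81.7, 86.8 and 126 CPM in m12_WD+VC, against 564, 457 and 518 CPM in w12_WD+VC, groups far apart. It was 5.15-fold lower in m12_WD+VC (log2 -2.37 ± 0.36; edgeR adjusted p = 0.000264). Hmox2, the constitutive haem oxygenase, had 356, 290 and 325 CPM in m12_WD+VC and 859, 809 and 900 CPM in w12_WD+VC (log2 -1.41 ± 0.32; edgeR adjusted p = 0.0226); its neighbour on the other strand, Cdip1, had 4250 counts and a log2 fold change of 0.17 ± 0.3. Inhbc, the activin beta-C subunit that hepatocytes secrete, had 52.0, 76.3 and 76.6 CPM in m12_WD+VC and 210, 252 and 273 CPM in w12_WD+VC (log2 -1.77 ± 0.42; edgeR adjusted p = 0.0304). It missed the threshold with RLE size factors and with DESeq2 (adjusted p up to 0.121). With each library left out in turn, Hmox2 and Inhbc each passed in 1 of the 6 fits (edgeR adjusted p up to 0.187 and 0.177). Fam120b, known as a coactivator of PPAR-gamma, had 163, 95.8 and 186 CPM in m12_WD+VC and 500, 340 and 838 CPM in w12_WD+VC (log2 -1.93 ± 0.41; edgeR adjusted p = 0.0141). D7Ertd143e and Tmem253 fell with separate groups, at log2 -2.19 ± 0.44 and -1.58 ± 0.38, as did the entries Gm10007, Peg3os, Gm6297 and B430010I23Rik. Tmem253 missed the threshold with DESeq2 (adjusted p 0.116), Peg3os in 3 alternatives, DESeq2 among them (up to 0.107), and B430010I23Rik without the expression filter (edgeR adjusted p 0.291). Pde5a, the phosphodiesterase of cyclic GMP, passed with groups that overlapped, at 7.43, 5.99 and 35.6 CPM in m12_WD+VC and 24.5, 117 and 443 CPM in w12_WD+VC (edgeR adjusted p = 0.0447). The call ended in 5 of 8 other fits, namely RLE size factors, DESeq2, 23 libraries, the replicate block and scaling within overlap classes (adjusted p up to 0.12), and when any 1 of 4 libraries was left out.

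Of the genes of the cytosolic ribosome most had a fold change above 0, and 1 passed. Of 61 listed genes 57 were tested, 55 of them had a log2 fold change above 0 and the median was 0.80, beside 0.05 over all genes tested. In 33 of the 57 the m12_WD+VC libraries lay above all w12_WD+VC libraries, as in 12.1% of all genes tested. Rps15, a protein of the small subunit, had 134, 166 and 112 CPM in m12_WD+VC and 40.1, 37.7 and 61.3 CPM in w12_WD+VC and was the member that passed (log2 1.63 ± 0.38; edgeR adjusted p = 0.0255). It missed the threshold in 3 alternatives, DESeq2 among them (adjusted p up to 0.108). Rps15 passed in 1 of the 6 fits that left a library out (edgeR adjusted p up to 0.331). Of the list, 15 passed with limma-voom, 8 of 45 tested with the compared groups alone and 0 with DESeq2. Over all genes these fits passed 239 of 4198, 170 of 2605 and 25 of 15541. Together these genes took 0.61% ± 0.109 of counts in m12_WD+VC and 0.33% ± 0.0454 in w12_WD+VC (SD, n = 3 each). Entries without an overlap on the other strand took 20.6% ± 2.41 of counts in m12_WD+VC and 16.9% ± 2.63 in w12_WD+VC, and their part in this result was not tested beyond a rescaling. With scaling within overlap classes the ribosomal median was 0.76, with 54 of 57 above 0.

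Lysosomal genes lay higher with none past edgeR's threshold. Of 24 tested, 20 were above 0 (18 with scaling within overlap classes), with a median of 0.80. An unadjusted p under 0.05 was found in 8, beside 11.8% of all genes tested. With limma-voom 4 passed, beside 239 of 4198 over all genes, and with DESeq2 1, Ctsa, beside 25 of 15541. Ctsa, the protective protein cathepsin A, had 4280, 5260 and 5300 CPM in m12_WD+VC and 2800, 1870 and 1930 CPM in w12_WD+VC (log2 1.17 ± 0.33; edgeR adjusted p = 0.0925), and its exons overlap those of Pltp, so its reads cannot be assigned with certainty. Of 38 listed matrix genes 14 were tested, 12 of these lay above 0 and the median was 1.02, but with the compared groups alone 4 were tested, 2 lay above 0 and the median was 0.04. Spp1 alone, which also stands in the lists of lipid-laden macrophages and cholangiocytes, passed with edgeR. Col6a2, a chain of collagen VI, had 29.7, 32.9 and 41.0 CPM in m12_WD+VC and 4.46, 8.39 and 0 CPM in w12_WD+VC (log2 2.79 ± 0.8; edgeR adjusted p = 0.0925). Stellate cell and fibroblast markers summed to 336 to 416 CPM in m12_WD+VC and 293 to 399 CPM in w12_WD+VC. Of cholangiocyte markers, Krt18 had 186, 205 and 159 CPM in m12_WD+VC and 123, 79.7 and 75.0 CPM in w12_WD+VC (edgeR adjusted p = 0.171), and Cftr, Cldn4 and Tff3 had 0 counts in all 6.

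Male-biased genes of growth hormone action had no member past edgeR's threshold. Their summed level was 943, 810 and 484 CPM in m12_WD+VC and 781, 872 and 2490 CPM in w12_WD+VC, so the groups overlapped and the third w12_WD+VC library stood high. Of 39 listed, 19 were tested, 13 lay below 0 and the median was -2.11, or -1.9 with the 3 genes at 0 in m12_WD+VC at their bound. Without the third w12_WD+VC library the median was -1.2, and with the compared groups alone it was -0.21 with 4 of 8 above 0. The major urinary protein gene Mup7 had 0 CPM in all m12_WD+VC libraries and 6.69, 25.2 and 286 CPM in w12_WD+VC. It was at least 23.8-fold lower in m12_WD+VC (edgeR adjusted p = 0.0512), and the third w12_WD+VC library held most of its counts. Serpina1e, a male-biased antitrypsin, had 59.4, 16.5 and 16.4 CPM in m12_WD+VC and 51.3, 122 and 368 CPM in w12_WD+VC, groups that overlapped (log2 -2.78 ± 0.72; edgeR adjusted p = 0.0585). In 6 of the 19 the m12_WD+VC libraries lay below all w12_WD+VC libraries, as in 9.08% of all genes tested. An unadjusted p under 0.05 was found in 10 of the 19, beside 11.8% of all genes tested. With DESeq2 1 passed, beside 25 of 15541 over all genes, and with limma-voom 4, beside 239 of 4198. Paralogs of the Mup and Serpina1 families share sequence, so counts may be split between them with uncertainty.

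**Figure D3:**
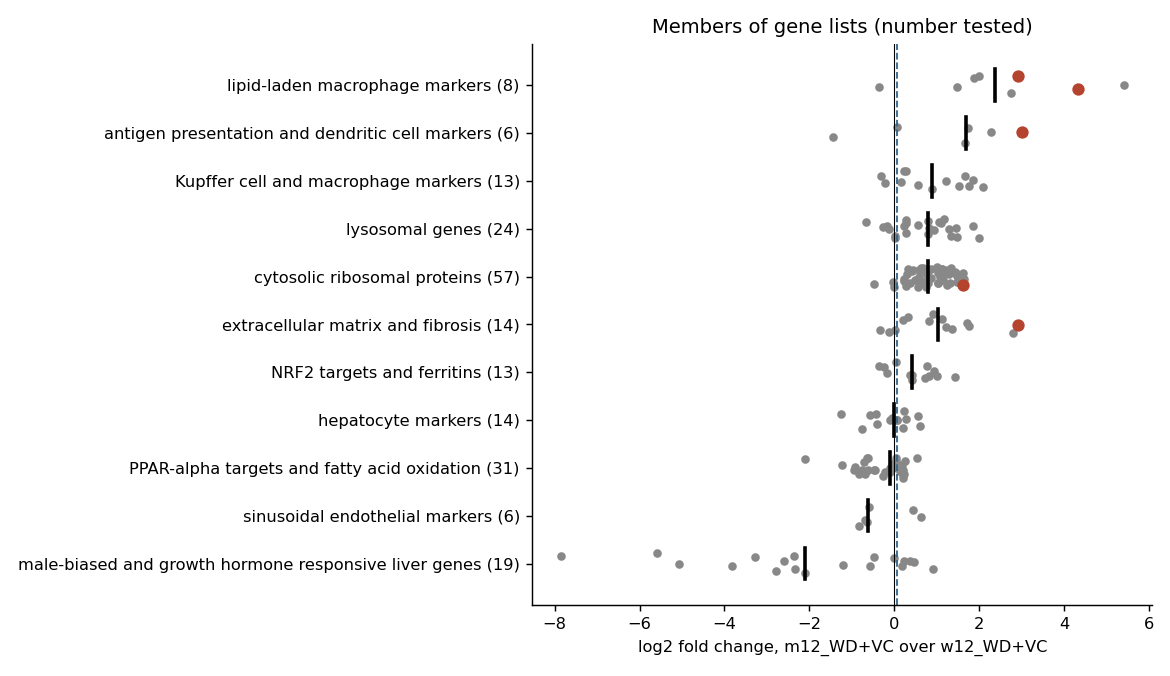
Log2 fold change (m12_WD+VC over w12_WD+VC) of the tested members of 11 lists, with the number tested in brackets. Red points passed the test, black bars are list medians (2.37 for lipid-laden macrophage markers, -2.11 for male-biased genes) and the dashed line is the median of all genes tested, 0.05.

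Hepatocyte markers and genes of VC metabolism were measured beside these. None of 14 tested hepatocyte markers passed with edgeR or DESeq2, and 1, Pck1, had an unadjusted p under 0.05 and passed with limma-voom; 7 of 14 lay above 0 (5 with scaling within overlap classes, 9 with RLE size factors). Albumin Alb had 2530, 3160 and 2000 CPM in m12_WD+VC and 3310, 3630 and 4460 CPM in w12_WD+VC (log2 -0.56 ± 0.4; edgeR adjusted p = 0.647), groups that did not overlap. Cyp2e1, which oxidises VC, had 1420, 1180 and 903 CPM in m12_WD+VC and 1280, 1250 and 1210 CPM in w12_WD+VC, with overlapping groups (log2 -0.1 ± 0.43; edgeR adjusted p = 0.983). Among glutathione transferases Gstm1 had 59.4, 335 and 495 CPM in m12_WD+VC and 109 CPM in each w12_WD+VC library, so that 1 m12_WD+VC library lay below and the others above (edgeR adjusted p = 0.252). Cyp2c54, a P450 of xenobiotic and fatty acid oxidation, had 0, 8.98 and 8.21 CPM in m12_WD+VC and 49.1, 58.7 and 47.7 CPM in w12_WD+VC (log2 -2.77 ± 0.76; edgeR adjusted p = 0.0826). Ferritin heavy chain Fth1, which stores iron, had 423, 570 and 495 CPM in m12_WD+VC and 268, 226 and 252 CPM in w12_WD+VC (log2 1.0 ± 0.34; edgeR adjusted p = 0.176).

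Genes of lipid use and of the acute phase varied within groups. Of 31 tested PPAR-alpha targets 18 lay below 0 with a median of -0.11 (0.02 with RLE size factors), and 0 had an unadjusted p under 0.05 or passed with edgeR, DESeq2 or limma-voom. The adipocyte fatty acid carrier Fabp4 had 37.1, 47.9 and 10.9 CPM in m12_WD+VC and 0, 0 and 6.82 CPM in w12_WD+VC, 41 counts against 1 (ratio 29.3, counting interval 4.96 to 1180; edgeR adjusted p = 0.0801). Txnip, a glucose-responsive inhibitor of thioredoxin, had 342, 160 and 57.4 CPM in m12_WD+VC and 1950, 730 and 341 CPM in w12_WD+VC, with a narrow overlap (log2 -2.55 ± 0.68; edgeR adjusted p = 0.0665). The acute phase protein Saa2 reached 1340 CPM in the first m12_WD+VC library, beside 111 and 49.2 CPM in the others, and 37.9, 58.7 and 95.4 CPM in w12_WD+VC (edgeR adjusted p = 0.0973). That library was thus high alone in Saa2, and also in Saa1, at 1650 CPM beside 257 and 90.3 CPM. Alpha-fetoprotein Afp had 74.3, 68.9 and 73.8 CPM in m12_WD+VC and 44.6, 33.6 and 20.4 CPM in w12_WD+VC (edgeR adjusted p = 0.408), and the tumour marker Gpc3 had 0 counts in all 6 libraries. The m6A methyltransferase gene Mettl3 had 119, 111 and 159 CPM in m12_WD+VC and 196, 113 and 129 CPM in w12_WD+VC (edgeR adjusted p = 0.873), and Fto had 5 counts in each group.

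The same passage of time was measured in 3 other arms, which share no library with these 6. The 22 entries that rose had a median log2 fold change of 2.53 here, 2.24 on Western diet with clean air, 1.17 on control diet with VC and 0.45 on control diet with clean air. A fold change above 0 was seen in 22, 20 and 16 of them in those 3 arms, beside 58.2%, 55.5% and 49.6% of all genes tested. The 11 that fell had medians of -1.66 here and -2.25, -1.21 and -0.47 in those arms. Spp1 averaged 65.4 ± 23.1 CPM in m12_WD+VC and 9.79 ± 10.3 CPM in w12_WD+VC (SD, n = 3 each). In clean air it had 62.4, 186 and 133 CPM in m12_WD, and 7.77 and 8.5 CPM in the first and the second w12_WD library. The third w12_WD library held 607 counts, where a count of 0 allows up to 1340 CPM, so its 0 does not measure Spp1. AV064505 averaged 2.78 ± 2.79 CPM in m12_CD+VC and 4.19 ± 5.18 CPM in w12_CD+VC, so it was near the counting limit on control diet.

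**Figure D4:**
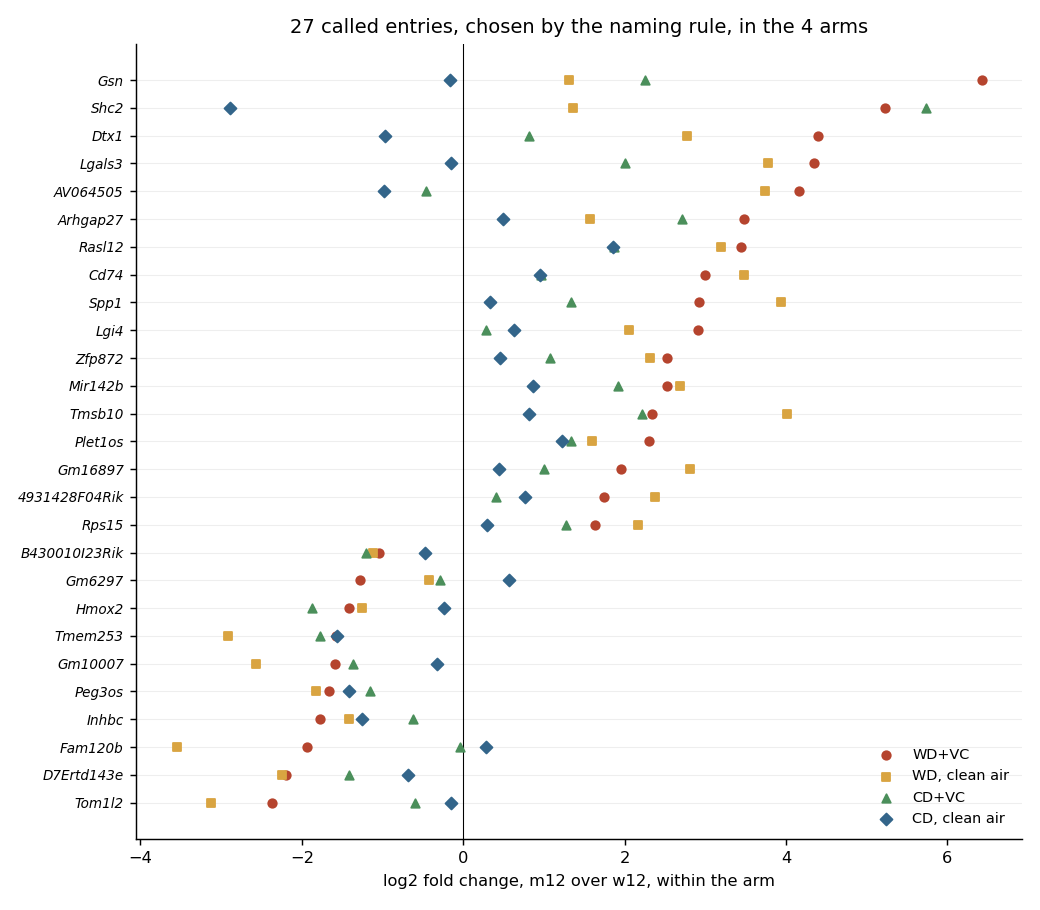
Log2 fold change, m12 over w12, of 27 of the 33 entries that passed the test on Western diet with VC, those picked by the rule for named genes (red circles), and the same on Western diet with clean air (squares), control diet with VC (triangles) and control diet with clean air (diamonds). Red circles were chosen for their size; the squares lie on the same side of 0 in all 27.

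Whether time acted differently after VC was tested on Western diet as (m12_WD+VC minus w12_WD+VC) minus (m12_WD minus w12_WD). Of 4198 genes, 7 (0.167%) passed edgeR's test, all with a higher difference, and none of the 33 entries above was among them. Of the 33, 5 had an unadjusted p under 0.05, beside 9.22% of all genes tested, and 0 passed with DESeq2 or limma-voom. On simulated data this test recovered 3% of 2-fold, 16.4% of 4-fold and 72.7% of 8-fold differences. A missing call therefore does not show that the time effects were alike. Zfhx2os, an antisense entry to the homeobox gene Zfhx2, had 371, 157 and 257 CPM in m12_WD+VC and 359, 449 and 627 CPM in w12_WD+VC. In clean air it had 22.7, 29.8 and 37.1 CPM in m12_WD and 578, 603 and 0 CPM in w12_WD. It was low in the m12_WD libraries. The 0 of the third w12_WD library allows up to 1340 CPM and is not a low level. The difference of differences was log2 3.29 ± 0.51 (edgeR adjusted p = 0.000871). The zinc finger gene Zfp668 had 66.8, 24 and 30.1 CPM in m12_WD+VC and 103, 122 and 54.5 CPM in w12_WD+VC, but 1.89, 0 and 0 CPM in m12_WD against 132, 76.5 and 0 CPM in w12_WD. The clean-air arm had 1 count in m12_WD and 60 in w12_WD, so w12_WD over m12_WD was 229 with a counting interval of 39.6 to 9210. The fitted difference, log2 5.45 ± 0.92 (edgeR adjusted p = 0.00237), rests on that 1 count and its size is uncertain, and DESeq2 and limma-voom gave adjusted p of 0.15 and 0.0834.

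The remaining 4 named were 1700034P13Rik, 4932416H05Rik, Hcn3 and Gpr108, at log2 2.51 to 3.08. With DESeq2 the first of these had an adjusted p of 0.109 and 4932416H05Rik 0.283, and the call on 4932416H05Rik also ended without any of 7 libraries (edgeR adjusted p 0.0523 to 0.294). 1700034P13Rik was lost without the first w12_WD library (edgeR adjusted p 0.101). Hcn3, a channel gene across from the pyruvate kinase gene Pklr, had 884, 1130 and 1290 CPM in m12_WD+VC and 520, 1430 and 641 CPM in w12_WD+VC, with 728, 573 and 742 CPM in m12_WD and 4410, 6300 and 448 CPM in w12_WD. The 2 deeper w12_WD libraries stood far above all others, and the call ended with RLE size factors (edgeR adjusted p 0.0687), with DESeq2 (adjusted p 0.225) and without any of 5 libraries, the third w12_WD+VC library among them (edgeR adjusted p 0.0691). Pklr had 52 counts in the 6 WD+VC libraries against 2011 for Hcn3. Gpr108, a Golgi membrane protein, was lost without any 1 of 10 libraries. Without the third w12_WD library 7 genes still passed, the same 7.

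Whether time acted differently with the diet after VC gave 1 gene (0.0238%), Fads2, at chr19:10062765-10101746. It encodes the delta-6 desaturase of polyunsaturated fatty acid synthesis. Fads2 had 163, 127 and 118 CPM in m12_WD+VC and 283, 239 and 218 CPM in w12_WD+VC, against 453, 428 and 707 CPM in m12_CD+VC and 160, 86.6 and 99.9 CPM in w12_CD+VC. Neither pair of groups overlapped, and the order of the times was opposite in the 2 diets. The difference of differences was log2 -3.06 ± 0.51 (edgeR adjusted p = 0.00341), and it passed in every alternative tried, with adjusted p of 0.00016 to 0.0325. On Western diet with VC alone the fold change, log2 -0.9 ± 0.36, did not pass (edgeR adjusted p = 0.275), though it did with limma-voom (0.0485) and with the compared groups alone (edgeR adjusted p 0.0367). None of the 33 entries passed here with edgeR or DESeq2, while 12 had an unadjusted p under 0.05, beside 8.5% of all genes tested. Tom1l2 passed with limma-voom. On simulated data this test recovered 1.5% of 2-fold, 29.9% of 4-fold and 77.3% of 8-fold differences, so a missing call does not show equal time effects. Next by p, without passing, was the prohibitin gene Phb2 at log2 -3.2 ± 0.73 (edgeR adjusted p = 0.143). It had 44.6, 31.4 and 30.1 CPM in m12_WD+VC and 46.8, 29.4 and 47.7 CPM in w12_WD+VC, against 66.4, 44.3 and 58.5 CPM in m12_CD+VC and 7.74, 7.88 and 6.66 CPM in w12_CD+VC. The w12_CD+VC libraries were the low ones.

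**Figure D5:**
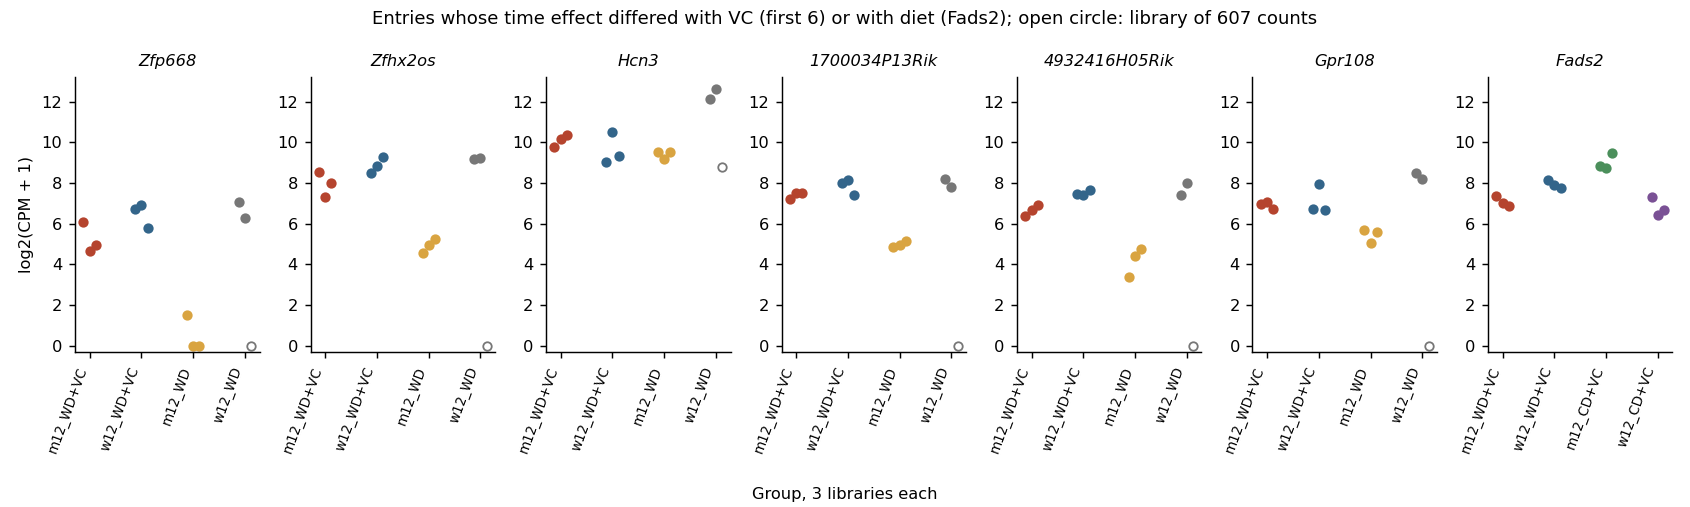
Levels as log2(CPM + 1) in each library for 6 entries whose time effect differed with VC on Western diet and for Fads2, whose time effect differed with diet after VC. The open circle is the w12_WD library of 607 counts, whose 0 allows up to 1340 CPM; Fads2 lies lower in m12_WD+VC than in w12_WD+VC and higher in m12_CD+VC than in w12_CD+VC.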

How the data were processed

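Liver RNA, depleted of ribosomal RNA, was made into TruSeq libraries and run on a HiSeq2500, as the labels' protocols state. The submitters' processing notes name the mm10 build with HTSeq 0.11.2, HISAT2 2.1.0 and Trimmomatic 0.38. No source used here gives the annotation, filters or strand setting. The authors deposited raw counts per gene for 24421 entries, and per-sample files of log2 values, found on checking to match log2 of the size-factor-scaled count plus 1 (largest difference 5.15e-14) and not tested. Each library was placed by its title. Counts of all 24 libraries in 8 groups entered 1 model of edgeR 4.0.16 (R 4.3.3) with its expression filter, TMM scaling and quasi-likelihood tests, common dispersion equal to a biological coefficient of variation of 0.317, and Benjamini-Hochberg adjustment over 4198 genes at 0.05. CPM is the count per 1000000 of the TMM-scaled library size. A group at 0 was set at 3 counts over the group for a bound, and a ratio resting on 1 to 3 counts carries an exact 95% interval; both cover counting error only. Symbols were placed on GENCODE M21 (GRCm38), 23334 by symbol and 649 by synonym with 438 left, and opposite-strand exon overlaps were found with bedtools 2.31.1 (5797 entries).

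The members, gene lists and motifs were chosen with earlier results of these data known. Named genes were up to 12 per direction by fold change among those past the threshold with at least 5 CPM in a group and separate groups, up to 4 predicted or antisense entries per direction, up to 4 members with the smallest p from each list, a fixed set of 14 genes, and up to 6 per direction in an interaction. Tsr2, Tctn1, Ctdsp1, Nrxn2 and Pde5a, also past the threshold, and Plin2 lie outside this rule and were named after their values were seen. Tested on simulated data (3716 genes passed the filter in that step), the time comparison recovered 13.4% of 2-fold, 65.7% of 4-fold and 92.4% of 8-fold changes, with 9 calls among unchanged genes. Replicates differed by more than sampling noise (chi-square per degree of freedom 2.42 to 4.73). The alternatives tried were DESeq2 1.42.0, limma-voom with weights (limma 3.58.1), RLE size factors, all entries unfiltered, the compared groups alone, 23 libraries, the replicate number as a block, entries without an overlap alone, each library left out and, added after seeing the data, scaling within overlap classes. One of the 7 genes of the interaction with VC lies outside the named-gene rule and is not described. Some entries are not reported here.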

Additional observations from a re-analysis of the deposited data

Results flagged for a closer look

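In the difference of differences between (m12_WD+VC minus w12_WD+VC) and (m12_WD minus w12_WD), 6 entries stood out because their time effects differed by edgeR's test of that difference. They were Zfp668 at log2 5.45, Zfhx2os at 3.29, Hcn3 at 3.08, 1700034P13Rik at 2.55, 4932416H05Rik at 2.53 and Gpr108 at 2.51. Zfp668 had a time effect of log2 -1.44 with VC; in clean air it had 1 count in m12_WD and 60 in w12_WD (w12_WD over m12_WD 229, counting interval 39.6 to 9210), so the size of 5.45 is uncertain. Zfhx2os had time effects of log2 -0.9 with VC and -4.19 in clean air. For Hcn3 they were log2 0.35 with VC and -2.73 in clean air. The w12_WD group holds the library of 607 counts, in which 5 of the 6 had 0 counts and a 0 allows up to 1340 CPM. Between (m12_WD+VC minus w12_WD+VC) and (m12_CD+VC minus w12_CD+VC), Fads2 differed at log2 -3.06, with time effects of log2 -0.9 on Western diet and 2.16 on control diet.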

How the results depend on the processing

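The count of genes past the threshold for time on Western diet with VC was 33, and 54 without the expression filter, 239 with limma-voom, 170 with the compared groups alone, 3 among entries without an overlap alone (1664 tested), and 2 to 25 when 1 library was left out. RLE gave 43, DESeq2 25, 23 libraries 28 and scaling within overlap classes 35. Of the 33, the higher share was 66.7%, against 79.1% with RLE, 45.6% with limma-voom, 45.3% with the compared groups alone and 62.9% with scaling within overlap classes; no sign of the 33 turned. RLE moved the median of all genes to 0.19, from 0.05. The interaction with VC gave 7, and 4 with RLE, 18 without the filter, 1 with DESeq2, 16 with limma-voom, 13 with the compared groups alone, 0 among entries without an overlap alone (170 at an unadjusted p under 0.05), 11 with scaling within overlap classes and 3 to 11 when 1 library was left out. The interaction with diet gave 1, and 6 without the filter, 4 with limma-voom, 5 with the compared groups alone and 1 to 2 when 1 library was left out. The cause of these moves was not tested. Libraries of the same replicate number did not deviate together (correlations -0.0158, -0.0208 and -0.0315), so the numbers do not pair them; the fit with a replicate block gave 35, 6 and 1 genes. Depth limits genes at or under 22.3 CPM, the limit that a count of 0 allows in the shallowest of the 6 libraries.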

Other observations

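Genes of the body clock, of cell division and of mitochondrial respiration were measured in the same 6 livers. Of 8 tested clock genes none passed edgeR's test and 0 had an unadjusted p under 0.05, with 0 passing in DESeq2 or limma-voom. Dbp, an output gene of the clock, had 59.4, 111 and 150 CPM in m12_WD+VC and 53.5, 96.5 and 61.3 CPM in w12_WD+VC. Arntl had 3 counts in m12_WD+VC and 0 in w12_WD+VC. The proliferation marker Mki67 had 4 counts in each group. Of 27 tested genes of the respiratory chain 18 lay above 0, with a median log2 fold change of 0.17. None passed, while 1 had an unadjusted p under 0.05, beside 11.8% of all genes tested. The fatty acid synthase Fasn had 29.7, 49.4 and 43.8 CPM in m12_WD+VC and 22.3, 25.2 and 20.4 CPM in w12_WD+VC (edgeR adjusted p = 0.767). Fdft1, squalene synthase, had 1010, 1120 and 1360 CPM in m12_WD+VC and 711, 679 and 566 CPM in w12_WD+VC (edgeR adjusted p = 0.141, and past the threshold with DESeq2, limma-voom, RLE size factors and the compared groups alone), and its exons overlap those of Ctsb on the other strand.

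Sinusoidal endothelial markers summed to 752 to 794 CPM in m12_WD+VC and 883 to 961 CPM in w12_WD+VC, groups that did not overlap. Eng, the endothelial co-receptor endoglin, had 453, 382 and 408 CPM in m12_WD+VC and 609, 591 and 682 CPM in w12_WD+VC (log2 -0.6 ± 0.28; edgeR adjusted p = 0.36), and it overlaps Fpgs on the other strand. Lcn2, lipocalin-2, had 178, 89.8 and 52.0 CPM in m12_WD+VC and 20.1, 25.2 and 20.4 CPM in w12_WD+VC (edgeR adjusted p = 0.166). Of the bile acid genes, the sterol hydroxylase Cyp8b1 had 22.3, 50.9 and 27.4 CPM in m12_WD+VC and 75.8, 83.9 and 95.4 CPM in w12_WD+VC (edgeR adjusted p = 0.155). Globin genes had 0 counts in all 6 libraries.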
